A study of Homo sapiens with 4 samples.

Results

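First intron peaks are places inside intron 1 of annotated transcripts where RNA pulled down with YTHDF2 exceeded the peak caller's background in HCCLM3 cells. They were taken from the deposited peak list as the peaks on chromosomes 1 to 22 and X whose annotation reads intron 1 of a transcript, and each was given to the host gene whose Entrez number stands in that annotation. This gave 857 of 14858 peaks, or 5.77% (95% Clopper-Pearson interval 5.40 to 6.15), in 613 host genes, and 27.1% of the 3157 intron peaks on those chromosomes. HCCLM3 is a metastatic human hepatocellular carcinoma line. The labels give 2 YTHDF2 RIP libraries and 2 input libraries, both from wild-type cells with no treatment named, and no control pulldown. In RIP-seq (RNA immunoprecipitation and sequencing) RNA bound to a protein is pulled down with an antibody and sequenced, and the input is RNA of the same lysate. Each peak's fold, p and q are the authors' own values for the comparison of RIP with input, with fold taken over the caller's background at the summit. The files hold 1 list for the libraries together, so library depth is unknown, there is no replicate spread, and no p-value is given here. The intervals cover counting error between peaks only.

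YTHDF2 recognises N6-methyladenosine (m6A), a methyl mark placed on RNA mainly within GGAC-like motifs, and it is known mostly from the cytosol, where it brings deadenylases to marked mRNAs. Introns are removed from a transcript in the nucleus, so an intron peak may come from unspliced RNA, from a retained intron or from another gene that lies inside the intron. First introns are as a rule the longest of a gene and hold many nested elements, among them processed pseudogenes, which are DNA copies of mRNAs reinserted into the genome. The annotation gives promoters and exons of any transcript precedence over introns, and in these data no first intron peak lay closer than 3007 bp to a deposited start site.

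A first intron peak can also hold the start of a newer transcript. First intron peaks lay 3007 bp or more from deposited start sites, so only starts not among those could be met. RefSeq start windows (GRCh38.p14, from 250 bases before to 50 bases after a gene start) numbered 35116, and 1 of them met a first intron peak. It belonged to LOC124904763, a long non-coding RNA that starts at position 52277627 on the minus strand, inside the peak in intron 1 of the plus-strand zinc finger gene ZNF766 (chr19:52277381-52277695, hg38). The shared 118 bases (chr19:52277578-52277695, minus strand) are shown because they are the stretch of a first intron peak that the sequence tables hold, with the 50 transcribed bases of the non-coding RNA in capitals.
LOC124904763 start inside the ZNF766 peak: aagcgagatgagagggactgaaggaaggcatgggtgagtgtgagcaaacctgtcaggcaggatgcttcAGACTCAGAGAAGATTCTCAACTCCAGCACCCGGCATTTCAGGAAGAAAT
A script found GGAC 1 time on this strand, before the start, and 0 times on the other. GGAC stands on either strand in 87.4% of all 300-base start windows. That share is for longer stretches than these 118 bases, and the presence of GGAC here is a description only. The peak rested on 6 RIP fragments over a background of 2.04 (fold 2.30, −log10 q of 0).

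Most first intron peaks were faint. RIP fragments per summit, recovered from the deposited fold and p, had a median of 3 (quartiles 3 and 4), against 12 (quartiles 4 and 60) over all peaks. Of the 857, 129 rested on 2 fragments, 430 on 3 and 149 on 4, so that 82.6% (79.9 to 85.1) had 4 or fewer, as did 76.3% (74.6 to 78.1) of 2300 later intron peaks and 34.2% of all peaks. A summit of 20 or more fragments was found in 40 first intron peaks (4.67%, 3.36 to 6.30), in 115 (4.15 to 5.97%) of the later intron peaks and in 43.9% of all peaks. Widths went with this, since 541 first intron peaks (63.1%) had the list's lowest width of 315 bp, against 58.1% of later intron peaks and 29.6% of all peaks.

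**Figure D1:**
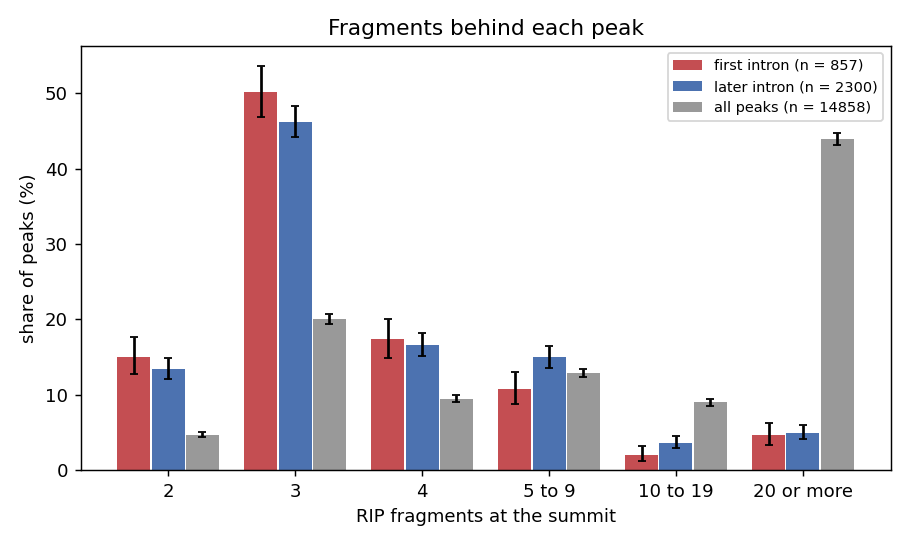
Share of peaks (%) by the number of RIP fragments at the summit, for 857 first intron peaks, 2300 later intron peaks and all 14858 peaks, with exact 95% intervals. First and later intron peaks pile up at 3 fragments (50.2% and 46.2%), while 43.9% of all peaks had 20 or more.

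The list also keeps peaks of higher q, so the cut at 0.01 is one set for this description and not the caller's. A q of 0.01 or less was reached by 56 of 857, or 6.53% (4.97 to 8.40), against 7.43% (6.40 to 8.58) of later intron peaks, 17.3% (15.6 to 19.2) of distal intergenic peaks and 37.3% of all peaks. The difference between first and later intron peaks was -0.90 percentage points, with an interval of -2.84 to 1.24. At a q of 0.05 or less the shares were 9.80% of first intron peaks, 11.8% of later intron peaks and 44.7% of all peaks. The −log10 q was 0 for 363 first intron peaks. The last to pass a q of 0.01 were 3 tied peaks in CRYBG1, MAGI2 and RASEF (−log10 q of 2.09 over 8 fragments each), and the next below lay in ARHGAP42 (1.9995 over 7 fragments).

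The median fold was 2.61 in first intron peaks, 2.61 in later intron peaks and 2.41 over all peaks. This equality says little, because 2.61 is the fold that 3 fragments reach over the genome-wide background of 0.533, and 238 first intron peaks had exactly that value. Among peaks at or below a q of 0.01 the median fold was 3.94 in first introns and 3.81 in later introns, a ratio of 1.03 (0.893 to 1.21). Among peaks with 20 or more fragments the median fold was 3.35 (95% interval of the median 2.95 to 4.37, n = 40) in first introns and 2.57 (2.37 to 2.79, n = 115) in later introns. The fragment minimum was chosen for the comparison after the list was seen, and peaks are not replicates of the experiment.

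Many strong first intron peaks lay on pseudogenes nested in the intron. Of the 56 that passed a q of 0.01, called strong here, 29 (51.8%, 38.03 to 65.3) overlapped by at least 1 bp a pseudogene of the RefSeq table other than the host, against 16 of the 801 weaker first intron peaks (1.998%, 1.15 to 3.22). The 10 peaks with the highest −log10 q each overlapped one, as did 9 of the 10 with the most fragments. Strong later intron peaks overlapped a pseudogene in 70 of 171 cases (40.9%, 33.5 to 48.7) and strong intergenic peaks in 137 of 299 (45.8%, 40.1 to 51.7). The first minus later difference was 10.9 percentage points with an interval of -4.95 to 26.3, so the pattern is not shown to be particular to first introns. The share was 6.15% over all 5541 strong peaks of the list. The list has no strand, and the sources used here do not say how reads that fit several places were handled, so reads of a pseudogene and of its parent mRNA cannot be told apart.

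**Figure D2:**
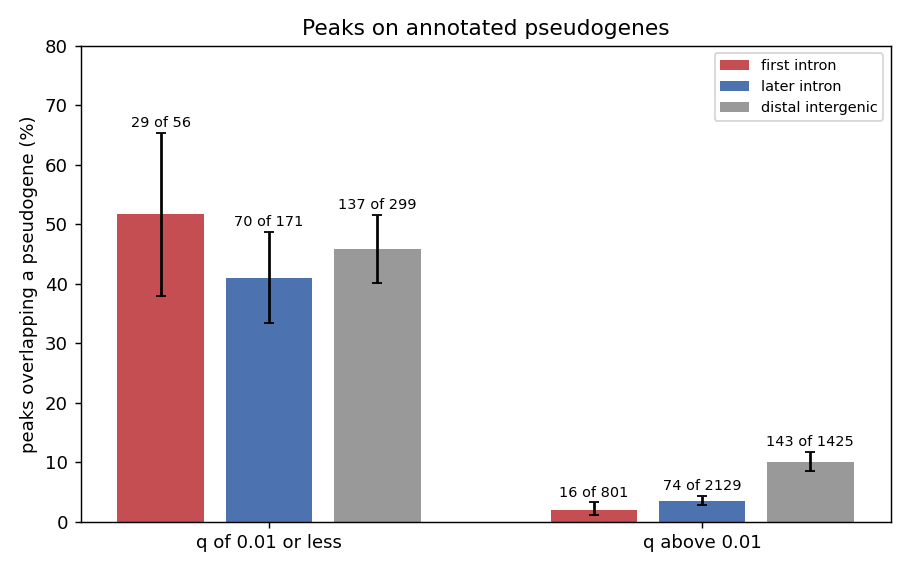
Share of peaks (%) that overlap a RefSeq pseudogene, for first intron, later intron and distal intergenic peaks with a q of 0.01 or less and with a q above it; bars carry exact 95% intervals and the counts. The share was 51.8% in strong and 1.998% in weak first intron peaks.

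The leading peak stood in intron 1 of MECOM, a zinc finger transcriptional regulator (chr3:169482951-169483837, hg38). It had 128 RIP fragments over a background of 23.1, 5.35-fold enrichment and a −log10 q of 46.0, and it covered RPL22P1, a copy of the mRNA of a large ribosomal subunit protein. The deposited table names MECOM-AS1 for it, the gene with the nearest start. GIPC1, an adaptor protein of membrane traffic, followed with the highest fold of the first intron peaks, 8.85, from 62 fragments over 6.12 (chr19:14489517-14489944). That peak lay on SNRPGP15, a copy of SNRPG, a core protein of spliceosomal snRNPs. The summit with the most fragments was in UBE2Q2P2, itself a transcribed pseudogene, with 185 fragments over 63.2 and a fold of 2.90 on RPL9P8. The fold was thus highest at GIPC1 and the fragment number at UBE2Q2P2, while the MECOM peak was among the 10 highest in both.

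HS3ST4, a heparan sulfate sulfotransferase with a single intron in the annotated transcript, had 91 fragments over 23.1 on HMGN2P3 (fold 3.82). NEURL1B, a ubiquitin ligase, had 57 over 10.3 on the unnamed copy LOC100130394 (fold 5.14). BAIAP2L1, an adaptor between membranes and actin, had 147 over 57.8 on RPS3AP26 (fold 2.52). These introns belong to genes of unrelated function, while the copies inside them are of a nucleosome-binding protein mRNA at HS3ST4 and a ribosomal protein mRNA at BAIAP2L1.

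LHFPL3 had 57 fragments over 11.6 on EIF4BP6 (fold 4.62), a copy of the initiation factor EIF4B. SMOC1, a secreted calcium-binding protein, had 41 over 5.78 on RPL7AP6 (fold 6.19). GBA3, a beta-glucosidase locus listed as a transcribed pseudogene, had 45 over 7.48 on CDC42P6 (fold 5.43). SLC35F1, a solute carrier, closed the leading 10 with 91 over 29.6 on RPL29P4 (fold 3.01). In DMD, the dystrophin gene, a peak on TBCAP1 297536 bp from the gene start had 35 fragments over 4.76 (fold 6.25), and in the tyrosine phosphatase gene PTPN14 a peak on AP3S1P2 had 25 over 2.72 (fold 6.99).

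**Figure D3:**
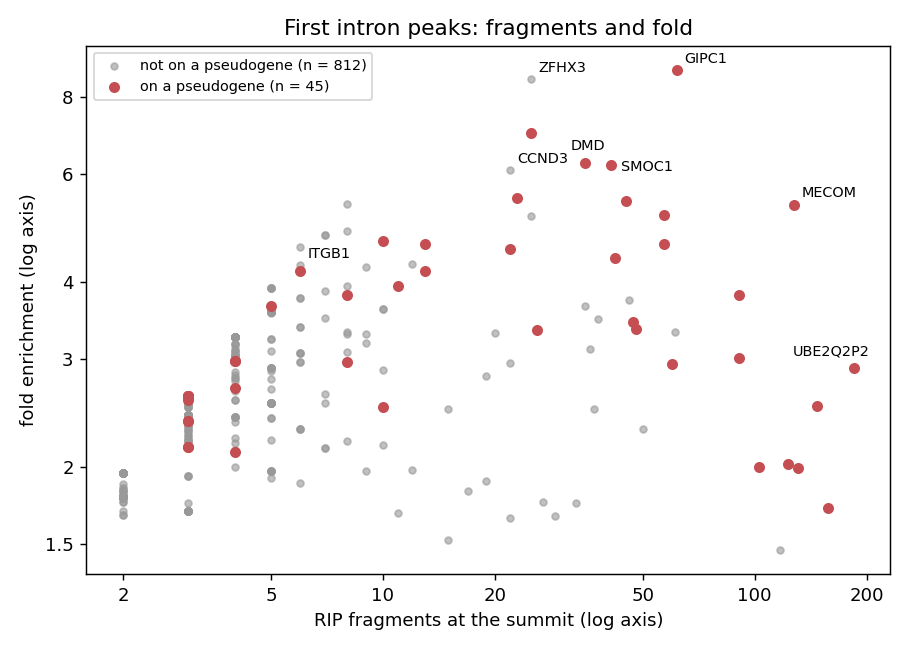
RIP fragments at the summit (log axis) against fold enrichment (log axis) for the 857 first intron peaks, with the 45 that overlap a pseudogene in red. Red points fill the upper right, led by MECOM (128 fragments, 5.35-fold), GIPC1 and UBE2Q2P2, while ZFHX3 and CCND3 stand high without a pseudogene.

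The 29 strong peaks covered 27 pseudogenes in 27 host genes. Ribosomal protein copies made up 10 of the 29 (34.5%, 17.9 to 54.3) and 23 of the 70 strong later intron peaks on pseudogenes (32.9%), while they were 11.1% of the 17088 pseudogenes in the table. TNKS2, a tankyrase, had 2 peaks on SRP9P1, with 42 and 47 fragments, and UNC5D, a netrin receptor, had 2 on LSM12P1, with 23 and 103. The widest first intron peak, 1338 bp in the non-coding gene ERICH2-DT, lay on EIF2S2P4 with 123 fragments.

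For 23 of the 27 pseudogenes the symbol names a protein-coding parent, 22 different genes in all since SNRPG has 2 copies here. Of these parents 20 had a strong peak inside their own gene. The share of all protein-coding genes with a strong peak is not given here, so this count is a description only. Set against the peak with the higher −log10 q of each copy, the parent's strongest peak had more fragments in 16 cases and fewer in 5, and the copy had the higher fold in 18. With the other peak of the copies that have 2, these counts were 15, 6 and 17: against LSM12 (65 fragments, fold 3.53), LSM12P1 had 23 fragments and a fold of 5.48 at its first peak and 103 fragments and a fold of 2.0006 at the other. At RPL22P1 the copy had 128 fragments and a fold of 5.35, against 49 fragments and a fold of 2.41 in the 3' UTR of RPL22. At SNRPGP15 it had 62 and 8.85-fold, against 42 and 4.45-fold in the 3' UTR of SNRPG. At RPL9P8 it had 185 and 2.90-fold, against 123 and 2.35-fold at RPL9. The reverse order in fragments held at RPL29P4, with 91 against 216 at RPL29, and at SRP9P1, with 42 and 47 against 158 at SRP9. RPL26 and RPS26, the parents of RPL26P30 (in CD81-AS1, 13 fragments) and RPS26P15 (in DAB1, 13 fragments), had no peak in the list, which gives no level for either.

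The other 27 strong peaks overlapped no nested pseudogene of the table. The host gene itself is not counted in such overlaps, and 1 of the 27 lay in GBA3, a transcribed pseudogene. ZFHX3, a homeobox transcription factor, led them at 8.55-fold and a −log10 q of 15.5, from 25 fragments over 2.04 (chr16:73014044-73014383). MAGI3, a scaffold of cell junctions, had 61 fragments over 17.7 (fold 3.32), and SMCO4 had 46 over 11.6 (fold 3.74). The peak of the cyclin gene CCND3 (chr6:42000043-42000401) had 22 over 2.78 (fold 6.08) and lay inside the non-coding gene LOC105375059. SSH2, a phosphatase of the actin regulator cofilin, had 25 over 4.08 (fold 5.12). These 5 were the strongest of the group by −log10 q.

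Others rested on few fragments. GNAQ, the alpha subunit of Gq, reached 5.36-fold with 8 fragments over 0.68, the lysosomal mannosidase MANBA 4.85-fold with 8, and the Rac exchange factor PREX1 4.76-fold with 7. The integrin gene ITGB1 had 6 fragments over 0.642 (fold 4.26, −log10 q of 2.45), and GOLIM4, a Golgi membrane protein, had 6 over 0.533 (fold 4.57). FAM53A had 2 strong peaks, with 35 and 22 fragments.

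Of the first intron peaks with 20 or more fragments, 5 did not pass a q of 0.01. AKR1C3, an aldo-keto reductase with close paralogs, had 2 of them, with 117 fragments over 79.5 (fold 1.47) and 29 over 17.0 (fold 1.67). The others were MTRFR (33 fragments, fold 1.75), DYNLL1 (27, fold 1.75) and the receptor gene MET (22 over 12.9, fold 1.65). The background of the 5 was between 12.9 and 79.5.

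Exon and 3' UTR peaks of the host gene were counted beside these, and no test was made of the counts. Promoter-class and 5' UTR peaks were left out, so mature mRNA peaks of those classes are not in the counts. Of the 27 host genes with a strong peak on a pseudogene, 3 (11.1%, 2.35 to 29.2) had a strong exon or 3' UTR peak, namely MECOM, BAIAP2L1 and TNKS2. Of the 25 host genes with a strong peak off pseudogenes, 13 (52.0%, 31.3 to 72.2) had one. Over all 613 host genes it was 211 (34.4%, 30.7 to 38.3), and over 1447 host genes of later intron peaks 25.4% (23.2 to 27.8). GNAQ had a 3' UTR peak of 148 fragments (fold 2.30), RNF115, a ubiquitin ligase, one of 129 (fold 2.21), CCND3 one of 90 (fold 2.46), and SIPA1L3 an exon peak of 118 (fold 1.91). ITGB1, SETD5, GOLIM4 and SMCO4 had no exon or 3' UTR peak given to them. The 3' UTR peaks were assigned by the gene span that holds the summit, so overlapping genes can share one. GBA3 counts in both groups.

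Of the 613 host genes, 473 (77.2%) had 1 first intron peak, 140 had 2 or more and 12 had 5 or more. MAGI2, a scaffold protein of cell junctions, and GRIP1, a scaffold for glutamate receptors, had 13 each. The 13 peaks in MAGI2 spread over 227578 bp of chromosome 7 and held 2 to 8 fragments each, 46 in all, and 2 of them passed a q of 0.01 (7 fragments, fold 4.76, and 8 fragments, fold 3.81). The 13 in GRIP1 spread over 259542 bp of chromosome 12 with 2 to 8 fragments each, 41 in all, and 0 passed. Their summits lay 37516 to 296707 bp from the GRIP1 start. GRIP1 also had a strong peak in intron 10, looked up after its values were seen, with 33 fragments over 0.792 (fold 18.97).

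UBASH3B, a phosphatase of receptor signalling, had 6 peaks with 2 to 6 fragments. Those with 5 were ATP2B1 (a plasma membrane calcium pump), MCU (the mitochondrial calcium uniporter), RAB7A (a late endosome GTPase), PACSIN2 (a membrane-bending adaptor), NPAS2 (a clock transcription factor), SLC22A3 (an organic cation transporter), SLC9A7 (a sodium-proton exchanger), LRP12 and the non-coding LINC00673. None of these 10 genes had a first intron peak that passed, and their highest fold was 3.65, in RAB7A over 5 fragments. Several had strong mRNA peaks beside them. RAB7A had a 3' UTR peak of 270 fragments (fold 1.82), MCU one of 135 (fold 1.75) and UBASH3B one of 103 (fold 1.83), while NPAS2 and SLC9A7 had no exon or 3' UTR peak. Of the 857 peaks, 107 (12.5%) had another first intron peak of the same host within 2000 bp.

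**Figure D4:**
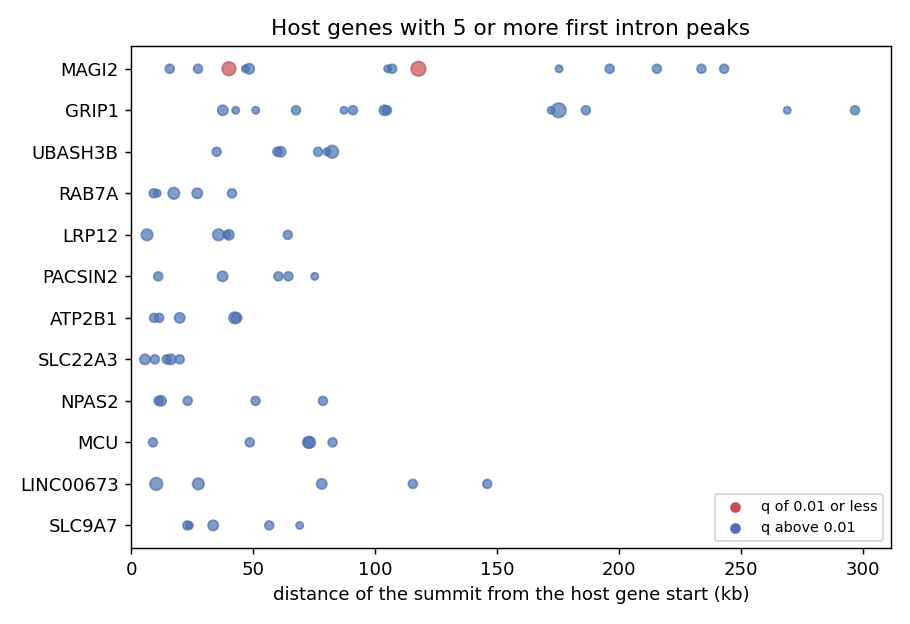
Distance of each summit from the start of the host gene (kb) in the 12 host genes with 5 or more first intron peaks; point area grows with RIP fragments and red marks a q of 0.01 or less. MAGI2 and GRIP1 have 13 peaks each over more than 200000 bp, and the 2 red points are both in MAGI2.

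Long genes held most of these peaks. Of the 20056 protein-coding genes that RefSeq lists, 555 (2.77%) had a first intron peak, and their median length was 112064 bp against 24092 bp over all protein-coding genes. The share with a first intron peak was 0.0885% (8 of 9037) below 20000 bp and 1.92% between 20000 and 50000 bp. It was 4.77% up to 100000 bp, 9.96% (8.67 to 11.4) up to 200000 bp and 8.72% (7.29 to 10.3) above that. For later intron peaks the share went on to 30.2% (27.8 to 32.7) in the longest class, against 19.6% (17.8 to 21.4) in the class before. Intron lengths are not in the tables used, so the peaks were not set against the length of intron 1.

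**Figure D5:**
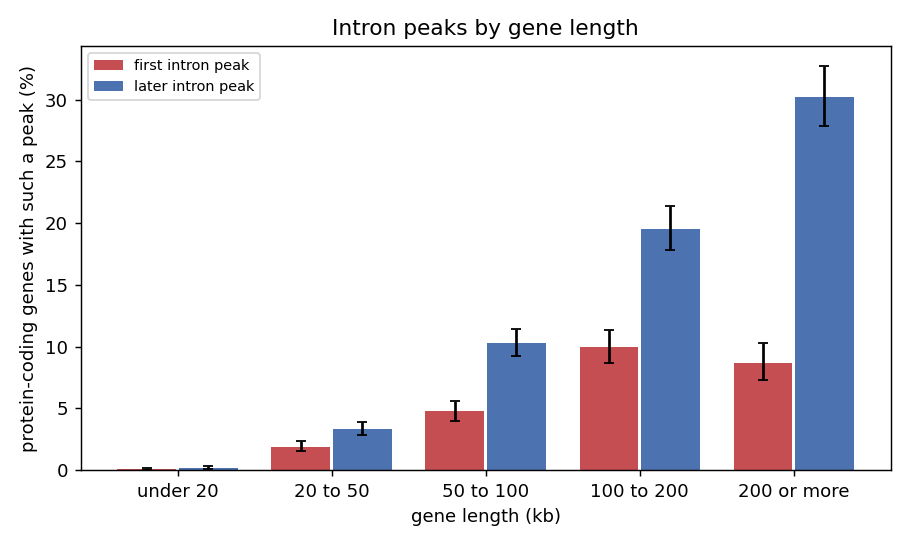
Share of protein-coding genes (%) with a first intron peak and with a later intron peak, by gene length (kb), with exact 95% intervals. The first intron share levels off at 9.96% and 8.72% in the top classes, while the later intron share reaches 30.2%.

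The peaks lay a median of 14672 bp (quartiles 7985 and 31692) from the nearest deposited start site of any gene, and a median of 21021 bp (10609 and 48369, n = 829) from the outermost start of the host gene. Later intron peaks lay a median of 78297 bp from the host start (n = 2185). Their host genes were also longer, with a median length per peak of 161989 bp against 121318 bp for first intron peaks. The cause of the larger distance was not tested. Of the 829 first intron peaks, 745 (89.9%) lay within 100000 bp of the host start. The nearest was in GNAT2, a transducin subunit, at 3024 bp (3 fragments). ZBTB45 followed at 3370 bp, with 9 fragments, a fold of 4.24 and a q that passed. The farthest was in PDE4D, a cyclic AMP phosphodiesterase, at 906643 bp (2 fragments), then ZFHX3 at 877711 bp. From the start of their own annotated transcripts these peaks lay 153363 bp (PDE4D) and 33909 bp (ZFHX3) away.

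Of the 857 peaks, 776 (90.5%) had a protein-coding host, 62 (7.23%) a long non-coding host and 18 a transcribed pseudogene as host, and 1 host number was not in the table. The gene that the deposited table names by nearest start was the host in 699 (81.6%) and another gene in 158. Besides pseudogenes, 56 peaks (6.53%) overlapped a long non-coding RNA gene, as did 6.39% of later intron peaks. A second protein-coding gene was overlapped by 31 peaks (3.62%) and a small RNA gene by 1. Strong peaks overlapped a long non-coding gene in 2 of 56 cases and weak ones in 54 of 801.

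Chromosome 7 had the most first intron peaks, 76 (8.87%, 7.05 to 11.0), against 8.48% of later intron peaks, and 63 without MAGI2. Chromosome 12 had 69 (8.05%, 6.32 to 10.1) against 5.48% (4.58 to 6.49) of later intron peaks, and 56 (6.64%, 5.05 to 8.53) without GRIP1. Chromosome 13 had 4 (0.467%, 0.127 to 1.19) against 1.91% (1.39 to 2.56) of later intron peaks. Chromosome 3 also had 69 (8.05%), against 7.83% of later intron peaks. These chromosomes were picked without a rule set beforehand, and the intervals do not allow for picking them from all chromosomes. Copy number of these chromosomes was not measured here.

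The lists of genes below were chosen with results of these data known, and most hold longer genes than the median of 24092 bp, so the shares are descriptions. Over all protein-coding genes 2.77% had a first intron peak, and 8.32% of all host genes had one that passed. In lists with 2 to 7 host genes, a count of 0 that passed is therefore no result about the list. A later intron peak was found in 1282 of the 20056 protein-coding genes. It was found in 19.6% of those of 100000 to 200000 bp and in 30.2% of longer ones. First intron peaks were found in 9.96% and 8.72% of these classes. Median lengths of the chromatin, vesicle, Wnt, CREB and EGFR lists, 108024 to 133929 bp, lay in the first class. That of the very long genes, 987268 bp, lay in the second. Of 40 genes of the actin cytoskeleton and focal adhesion, 12 (30.0%) had a first intron peak and 9 had a later intron peak. The median length of the 40 genes was 157718 bp. A first intron peak was found in 2.77% of all protein-coding genes and in 9.96% of those between 100000 and 200000 bp. A peak that passed was found in ITGB1, 1 of the 12, where 8.32% of all host genes had one. PXN (paxillin) and MYH9 (non-muscle myosin) had 4 fragments and a fold of 3.26 each. Of 47 chromatin regulators 9 (19.1%) had a first intron peak and 17 had a later intron peak. First intron peaks passed in 2 genes, MECOM on its pseudogene and SETD5 (12 fragments over 2.04, fold 4.28). EHMT1 (fold 3.26), KDM4C (3.04) and KMT2A (2.98), each a histone methyltransferase or demethylase, had 4 fragments.

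Of 37 genes of endocytosis and vesicle traffic 7 (18.9%) had a first intron peak and 0 passed, with RAB7A highest (fold 3.65) before ASAP1 (3.26). A later intron peak was found in 14 of the 37. Of 30 very long genes 6 (20%) had a first intron peak and 16 had a later intron peak. First intron peaks passed in 3 genes, namely DMD, PTPRG (60 fragments on RPL10AP6, fold 2.94) and MAGI2. Among 35 genes of Wnt, Hippo and TGF-beta signalling 9 had a later intron peak and 5 (14.3%) had a first intron peak, of which 0 passed. The ubiquitin ligase SMURF1 had 4 peaks and SMAD3, a signal transducer of TGF-beta receptors, 3, with highest folds of 3.08 and 3.26 over 4 fragments, and CTNNB1 (beta-catenin) had 1 of 3 fragments.

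Of 26 genes of the CREB, CRTC and SIK axis and calcineurin 6 had a later intron peak. A first intron peak was found in 5 (19.2%), PPP3CA, PPP3R1, SIK3, PDE4D and AKAP13, with 3 fragments at most, and 0 passed. Of 35 genes of EGFR, MET, RAS-MAPK and PI3K signalling 8 had a later intron peak and 5 (14.3%) had a first intron peak, of which 0 passed. EGFR had 3 peaks of 3 fragments each, SOS1 had 2, and PIK3CB and FRS2 had 1 each beside MET. Of 24 m6A writers, erasers and readers 3 had a later intron peak. A first intron peak was found in 2 (8.33%), HNRNPC (4 fragments, fold 2.57) and IGF2BP2 (2 fragments, fold 1.96), and 0 passed.

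Of 51 transcription factors of stress, growth and liver 7 had a later intron peak. A first intron peak was found in 5 (9.80%) and 0 passed, led by NFIB (4 fragments, fold 3.26) and the nuclear receptor RORA (6 fragments, fold 3.06). NFE2L2, the antioxidant regulator, had 3 fragments (fold 2.15). Of 41 RNA processing genes 6 had a later intron peak. A first intron peak was found in 3 (7.32%) and 0 passed, LUC7L3 (5 fragments, fold 3.57), RALY and RBFOX2. Of 33 genes of lipid and liver metabolism 4 had a later intron peak. A first intron peak was found in 3 (9.09%) and 0 passed, ACSL4 (5 fragments, fold 3.57), SLC2A1 and LPIN2. Of 27 long non-coding host transcripts 0 had a first intron peak and 8 had a later intron peak. The shares over all non-coding genes are not given here, so neither count is a result about this list.

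As a check of the label, the epithelial genes KRT8 and KRT18 had peaks that passed, EPCAM had none, and of 7 hepatocyte markers APOB had a peak that did not pass. Of the 9 endothelial, fibroblast and macrophage markers PECAM1, LUM and CD68 had a peak and 0 passed. No marker had a first intron peak, and a list of peaks gives no level for a gene without one.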

How the data were processed

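The 4 libraries (2 RIP, 2 input) were prepared with a stranded low-input total RNA kit, per the labels. Per the submitters' processing notes, HISAT2, MACS2 and hg38 were used; the sources used here give no versions, no options and no way of pooling. Per the file headers, each peak of the authors' list has a fold ratio, −log10 p, −log10 q and width in bp. The authors' deposited score, 10 times the −log10 p, was not used. The lowest −log10 p was 1.30.

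RIP fragments k and background b at each summit were recovered from fold = (k + 1) / (b + 1) and the Poisson p, with a largest residual of 0.000189 in −log10 p. Recovery was tested on simulated data. Host genes, lengths, pseudogenes and starts came from RefSeq (GRCh38.p14), which named 856 of 857 hosts, and 853 summits lay inside the host's span there. Strand came from the list or, failing that, the start windows. Strong peaks are those with a q of 0.01 or less. Shares have Clopper-Pearson 95% intervals and medians order-statistic intervals, and differences of shares combine both shares' intervals. Python 3.11.15, pandas 2.3.3 and scipy 1.17.1 were used.

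Named genes were the 10 leading first intron peaks by −log10 q, fold and fragments, the 10 host genes with the most peaks, the widest, nearest and farthest 5, and up to 4 members of each of 12 lists. Not each of them is printed, and the peaks off pseudogenes, those with 20 or more fragments that did not pass, and further list members were added after their values were seen. The members and lists were chosen with earlier results of these data known.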

Additional observations from a re-analysis of the deposited data

How the results depend on the processing

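Of 25 alternative values 13 stayed within the interval, or within 1.5 times the count, of the value reported and 12 moved. By construction, stricter thresholds left fewer first intron peaks, 84 at a q of 0.05 or less and 56 at 0.01 or less, and the share that passed was 9.80% at a q of 0.05 and 3.50% at a −log10 q of 5. Folds had a median of 3.94 at a q of 0.01 or less and 3.35 at 20 or more fragments, and its ratio to later introns, 1 over all peaks, was 1.03 and 1.31 there; the cause was not tested. The median distance was 21021 bp from the host start and 17118 bp (n = 513) from the annotated transcript's own start, both starts being chosen without regard to nearness. The share of strong first intron peaks on a pseudogene was 73.3% at a −log10 q of 5 and 35.7% at a q of 0.05, and the cause was not tested. With the summit inside the pseudogene it was 39.3%. The fragment minimum for the ratio, the transcript start and the pseudogene settings were chosen after seeing the data. No paired analysis was possible because the files hold 1 list for the libraries together, and for the same reason no library could be left out. Library depth is unknown, and 708 of 857 peaks rested on 4 or fewer fragments.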

Other observations

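Intron 1 was annotated for 4 further peaks on contigs other than chromosomes 1 to 22 and X, of which 1 had a q of 0.01 or less. First intron peaks were the commonest by intron number, with 857 of 3157 intron peaks, followed by 515 (16.3%) in intron 2 and 409 (13.0%) in intron 3. Every spliced transcript has an intron 1, and the order was not set against the number or length of introns. In 36 of the 857 the transcript had a single intron. Of the 613 host genes 144 (23.5%) also had a later intron peak. The strongest later intron peaks lay in TSPAN9 (247 fragments, fold 2.93, on RPS27P3), ANK2 (164 fragments, fold 3.82, on RPS26P25) and HFM1 (274 fragments, fold 2.71, on no pseudogene of the table).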
